A study of Mus musculus with 60 samples.

Results

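Exendin-4, a peptide that activates the receptor for the incretin hormone GLP-1 and is also sold as exenatide, was compared with its water vehicle in mouse pancreatic islets, over islets with and without active MYC. The comparison took every kept array titled as exenatide (27 arrays) against every kept array titled as water (25 arrays), 52 of the 60 arrays in all. The other 8 arrays are those that the submitters' design text drops for poor reproducibility.

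All mice were male pIns-MYCERTAM transgenics on a CBA-C57BL/6 background, which express MYC fused to a tamoxifen-responsive oestrogen receptor domain in beta cells, under an insulin promoter. One label gives their age as 8 to 12 weeks and the treatment protocol as 3 months. MYC was switched on (MycON) by intraperitoneal 4-hydroxytamoxifen, 1 mg every day, and the MycOFF mice received peanut oil. Exendin-4, 50 µg/kg, or water was injected under the skin 2 times a day from 2 days before the first tamoxifen or oil dose, so the sampling times of 4, 8, 16, 32 and 72 h are read here as hours from the latter and not from the start of exendin-4. The kept arrays were 15 MycOFF with exendin-4, 12 MycOFF with water, 12 MycON with exendin-4 and 13 MycON with water, with 2 or 3 arrays at each time. Every MycON mouse received tamoxifen and no group lacked the transgene. Islets were cut by laser from 15 µm frozen sections, and the labels number biological replicates without tying them to named animals, so p-values measure the spread between these arrays.

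The GLP-1 receptor is a G protein-coupled receptor of beta cells. Its activation raises cyclic AMP, which acts through protein kinase A and Epac to increase glucose-stimulated insulin secretion and, through the transcription factor CREB and its CRTC co-activators, to change transcription. Cyclic AMP also restrains the salt-inducible kinases (SIKs), which otherwise phosphorylate CRTCs and the class IIa histone deacetylases, repressors of MEF2-dependent genes.

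The deposited values are on a log2 scale and centred, so that each probe set has a median of 0 over the 60 arrays. They show differences between arrays but no absolute level, and the presence of islet markers could therefore not be checked by level. In bulk islet RNA, fewer cells of a type and less RNA per cell cannot be told apart. The SD over probe sets ran from 0.284 to 0.949 in exendin-4 arrays and from 0.288 to 0.607 in water arrays. It exceeded the highest water array in 4 exendin-4 arrays: MycOFF 4 h replicate 2 (0.687), MycOFF 16 h replicate 3 (0.949), MycOFF 72 h replicate 2 (0.811) and MycON 72 h replicate 1 (0.705). In MycOFF 16 h replicate 3 the mean of 11 skin and muscle markers was 2.84, against at most 2.11 in arrays other than these 4, and the mean of 21 oxidative phosphorylation genes was -2.29. In MycOFF 72 h replicate 2 the mean of 5 lymphoid markers was 2.47, against at most 0.98, and that of 14 beta cell identity genes was -1.21, against at least -0.42. The main results are therefore also given without these 4 arrays, an alternative chosen after seeing the data.

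Of 13166 genes tested with limma, 195 passed an adjusted p of 0.05 (Benjamini-Hochberg), which is 1.48% of those tested. Exendin-4 raised 46 of them (0.349%) and lowered 149 (1.13%). The change reached 2-fold in 30 genes, 11 higher and 19 lower, and the median difference was 0.74 log2 units among the higher genes and -0.67 among the lower ones. All 195 had the same sign in MycOFF and in MycON islets and 172 of them at all 5 times; since they were called on the effect pooled over the same arrays, this sign agreement is largely fixed by the call and is given as a description. No called gene separated all exendin-4 arrays from all water arrays. Without the 4 arrays of wide spread 163 genes passed (1.24%), 64 higher and 99 lower, so that 39.3% of calls were rises instead of 23.6%. Of these 163 genes, 134 were among the 195, which is 82.2% of the shorter list and 68.7% of the longer, and all 195 kept their sign. The count fell to 39 (13 higher, 26 lower) without the 4 h arrays and rose to 307 (26 higher, 281 lower) without the 8 h arrays. It was 23 with the 8 dropped arrays put back. Of the 35 called genes named here, 17 lost their call without the 4 h arrays and 12 without the 16 h arrays.

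**Figure D1:**
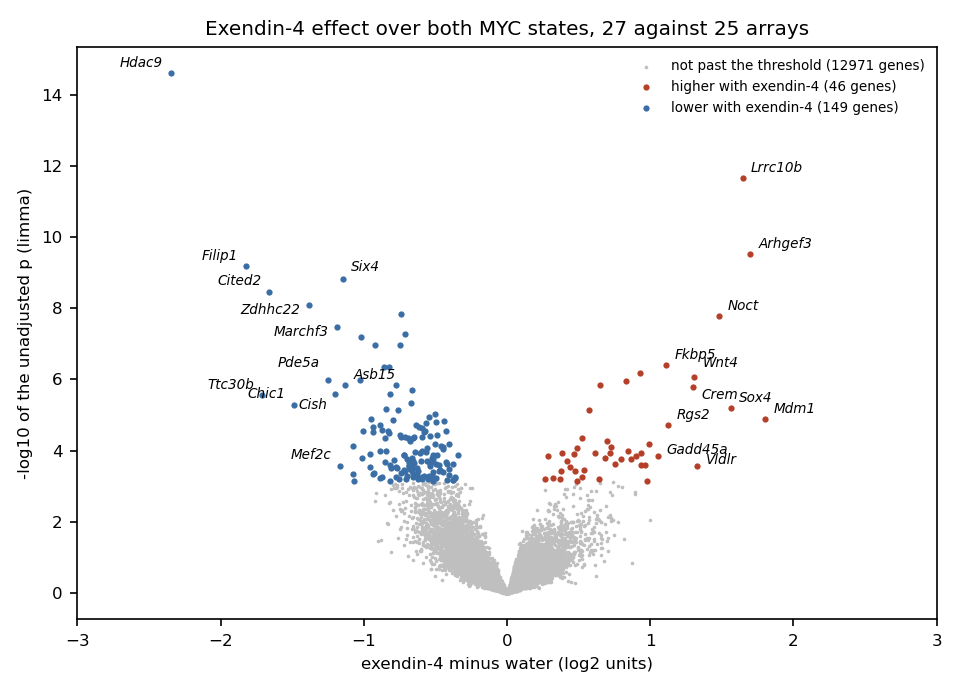
Each point is 1 of 13166 genes, with the exendin-4 minus water difference in log2 units on the horizontal axis and -log10 of the unadjusted limma p on the vertical axis; red and blue mark the 46 higher and 149 lower genes. Hdac9 stands alone at the upper left, and Lrrc10b and Arhgef3 lie highest on the right.

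Hdac9, a class IIa histone deacetylase, had the smallest p and the largest difference. Its value ran from -2.17 through a median of -1.46 to 0.92 in the 27 exendin-4 arrays, and from -0.20 through 0.85 to 2.31 in the 25 water arrays. Of the 27 exendin-4 arrays, 25 lay below every water array, and all 27 lay below the mean of the water arrays of their own MYC state and time. The difference was -2.35 ± 0.20 (SE) log2 units, 5.09-fold lower with exendin-4 (limma adjusted p = 3.2e-11). It was negative in all 10 combinations of MYC state and time, and the arrays did not overlap in 9 of them. A second Hdac9 probe set, with an interquartile range of 0.17 against 2.36, differed by -0.03 ± 0.07.

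Lrrc10b, a leucine-rich repeat protein gene, showed the rise with the smallest p. It ran from -0.30 through 1.23 to 4.30 with exendin-4 and from -2.85 through -0.13 to 0.81 with water, so that the groups overlapped but 17 exendin-4 arrays exceeded every water array. The difference was 1.65 ± 0.17 log2 units, 3.13-fold (limma adjusted p = 1.4e-08), and arrays were apart in 9 of the 10 combinations. Lrrc10b was also 1.49 ± 0.17 log2 units lower in MycON than in MycOFF islets in the same model (adjusted p = 1.6e-08). Its median was 1.76 in MycOFF and 0.14 in MycON islets with exendin-4, and 0.15 and -1.33 with water.

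Arhgef3, an exchange factor that activates the GTPase RhoA, ran from -1.08 through 1.16 to 2.27 with exendin-4 and from -2.17 through -0.74 to 0.27 with water. Of the exendin-4 arrays 22 exceeded every water array, and the difference was 1.70 ± 0.21 log2 units (limma adjusted p = 1.3e-06). Filip1, which encodes a filamin A-interacting protein, ran from -1.86 through -0.58 to 1.19 with exendin-4 and from -1.45 through 1.16 to 3.20 with water. It was lower by -1.82 ± 0.23 log2 units (limma adjusted p = 2.2e-06), with 26 of 27 exendin-4 arrays below the water mean of their own combination. A second Filip1 probe set differed by -0.28 ± 0.13. Hdac9, Lrrc10b and Arhgef3 kept their calls under all 20 alternatives to the model, the arrays and the scaling.

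Because CREB binds the cyclic AMP response element, the promoters of the called genes were searched for TGACGTCA and for its shorter form TGACG or CGTCA, on both strands, in the 250 bases before each RefSeq start (GRCm38.p6). Every match of the longer form holds the shorter one. The promoters of the 4 genes with the smallest p are shown 5′ to 3′ on the gene's strand, with the shorter form in capitals where it occurs.
Hdac9, chr12:34917096-34917345, minus strand: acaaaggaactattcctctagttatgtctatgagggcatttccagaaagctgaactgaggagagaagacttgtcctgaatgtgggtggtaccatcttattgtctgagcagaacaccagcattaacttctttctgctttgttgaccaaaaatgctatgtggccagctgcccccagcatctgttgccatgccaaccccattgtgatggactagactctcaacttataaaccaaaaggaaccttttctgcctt
Lrrc10b, chr19:10457448-10457697, minus strand: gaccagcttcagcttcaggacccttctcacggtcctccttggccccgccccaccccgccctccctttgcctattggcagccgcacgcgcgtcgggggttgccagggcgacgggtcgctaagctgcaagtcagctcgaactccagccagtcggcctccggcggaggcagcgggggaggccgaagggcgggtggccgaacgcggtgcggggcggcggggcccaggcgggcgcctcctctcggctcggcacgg
Arhgef3, an upstream start, chr14:27143743-27143992, plus strand: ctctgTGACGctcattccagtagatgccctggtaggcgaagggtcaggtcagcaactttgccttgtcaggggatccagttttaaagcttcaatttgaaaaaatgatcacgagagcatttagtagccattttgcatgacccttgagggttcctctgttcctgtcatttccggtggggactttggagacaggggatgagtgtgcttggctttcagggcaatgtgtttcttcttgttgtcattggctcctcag
Arhgef3, a downstream start, chr14:27335787-27336036, plus strand: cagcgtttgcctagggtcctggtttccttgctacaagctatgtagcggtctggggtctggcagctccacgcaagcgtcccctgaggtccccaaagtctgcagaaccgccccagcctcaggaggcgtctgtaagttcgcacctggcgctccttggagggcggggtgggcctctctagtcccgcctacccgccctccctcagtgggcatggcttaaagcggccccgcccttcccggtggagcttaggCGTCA
Filip1, chr9:80012852-80013101, minus strand: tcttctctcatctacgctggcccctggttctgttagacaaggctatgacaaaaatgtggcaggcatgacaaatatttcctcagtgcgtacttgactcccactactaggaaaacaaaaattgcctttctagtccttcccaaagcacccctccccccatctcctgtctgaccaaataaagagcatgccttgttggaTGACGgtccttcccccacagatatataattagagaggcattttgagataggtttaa
Hdac9 had 2 RefSeq windows and Lrrc10b 1, and none of these held either form. The shorter form was found in 2 of 4 Arhgef3 windows, 245 and 5 bases before the start, and in 1 of 4 Filip1 windows, 56 bases before it. Among genes with a window, the shorter form occurred in 14 of 37 raised genes (37.8%) and 44 of 123 lowered genes (35.8%), against 29.2% of 10613 genes tested and 19.8% of all 27025 genes with a window. Among the 24 leading genes it occurred in 6 of the 22 with a window (27.3%). The longer form occurred in 2 of 37 raised and 3 of 123 lowered genes, against 2.87% of genes tested and 1.77% of all genes with a window, and in none of those 22 leading genes. Of all 32851 windows of this length, 17.8% held the shorter form and 1.55% the longer. Errfi1, which encodes an inhibitor of EGF receptor family kinases, rose by 0.99 log2 units (limma adjusted p = 0.012). A second Errfi1 probe set past the filter gave 0.04. The Errfi1 call was lost in 7 of 20 alternatives, among them without the 4 h (adjusted p = 0.21) or 8 h arrays (0.12). Pax6, an islet transcription factor, fell, though less on its second probe set (-0.09). Both genes held the longer form, shown in capitals within 30 bases.
Errfi1, chr4:150855008-150855037, plus strand, 51 bases before the start: gctgcgggcgtTGACGTCAcgttgtcgctc
Pax6, chr2:105668809-105668838, plus strand, 76 bases before the start: tctggccgccgTGACGTCAtccgcgcccgg
A match describes these letters and not a bound site.

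The other leading falls, the largest among genes of 1 sign at all 5 times, were of varied function. Cited2, a CREB-binding protein and p300 interactor, ran from -3.27 through -0.99 to 0.21 with exendin-4 and from -1.19 through 0.66 to 1.81 with water. All 27 exendin-4 arrays lay below the water median, and 20 of 25 water arrays lay above every exendin-4 array. Cited2 was lower by -1.66 ± 0.23 log2 units (limma adjusted p = 7.5e-06), although a second probe set of narrow range differed by only -0.08 ± 0.06. Pde5a, the cyclic GMP phosphodiesterase, ran from -2.40 through -0.41 to 2.45 with exendin-4 and from -1.50 through 1.08 to 2.22 with water. It differed by -1.25 ± 0.22, and its other probe sets by -1.61 and -1.13. Cish, a cytokine-induced inhibitor of STAT5 signalling, ran from -1.51 through -0.26 to 1.11 with exendin-4 and from -0.74 through 0.54 to 3.40 with water. All 27 exendin-4 arrays lay below the water mean of their own combination (-1.20 ± 0.22, limma adjusted p = 0.0012). The homeobox gene Six4 (-1.15 ± 0.15), the palmitoyltransferase family gene Zdhhc22 (-1.39 ± 0.20), the ubiquitin ligase gene Marchf3 (-1.19 ± 0.18), Asb15 (-1.13 ± 0.20), Chic1 (-1.49 ± 0.29) and the ciliary transport gene Ttc30b (-1.71 ± 0.32) completed the falls with Mef2c, described with its pathway. For Zdhhc22 and Asb15, too, every exendin-4 array was below its own water mean.

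The leading rises included transcription regulators, G protein regulators and a secreted signal. Noct, which encodes the clock-linked phosphatase nocturnin, ran from -3.22 through 1.30 to 2.27 with exendin-4 and from -1.44 through -0.28 to 0.91 with water. Of 27 exendin-4 arrays 20 exceeded every water array, while the lowest, MycOFF 72 h replicate 2, lay below them all. The difference was 1.48 ± 0.21 log2 units (limma adjusted p = 2.4e-05). Sox4, a transcription factor of islet development, ran from -1.58 through 0.98 to 3.24 with exendin-4 and from -2.41 through -0.33 to 2.43 with water, a difference of 1.56 ± 0.30. Its other probe sets past the filter differed by 0.86 to 1.43, and those that missed the filter by at most 0.03. Wnt4, a secreted WNT ligand, ran from -2.06 through 0.67 to 2.51 with exendin-4 and from -3.18 through -0.66 to 0.87 with water. It rose by 1.31 ± 0.23, and by 1.47 on its second probe set, and 13 exendin-4 arrays exceeded every water array. Fkbp5, a co-chaperone of the glucocorticoid receptor, ran from -0.84 through 0.51 to 2.35 with exendin-4 and from -2.13 through -0.56 to 0.89 with water. The difference was 1.11 ± 0.19, positive in all 10 combinations. Mdm1, a centriolar microtubule protein gene, rose by 1.80 ± 0.37, the DNA damage and growth arrest gene Gadd45a by 1.05 ± 0.25, and Gpsm1, a modulator of Gi proteins, by 0.97 ± 0.24. These calls were lost in 5, 5 and 7 of 20 alternatives. Mdm1 did not pass without the 8 h arrays (limma adjusted p = 0.087), nor Gadd45a (0.099) and Gpsm1 (0.31) without the 4 h arrays. At 72 h the Gadd45a difference was -0.21 in MycOFF and 2.07 in MycON islets. The LIM-only factor Lmo1 (0.97 ± 0.27) passed narrowly and lost its call in 38 of 52 fits that each left out 1 array (adjusted p 0.022 to 0.086).

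**Figure D2:**
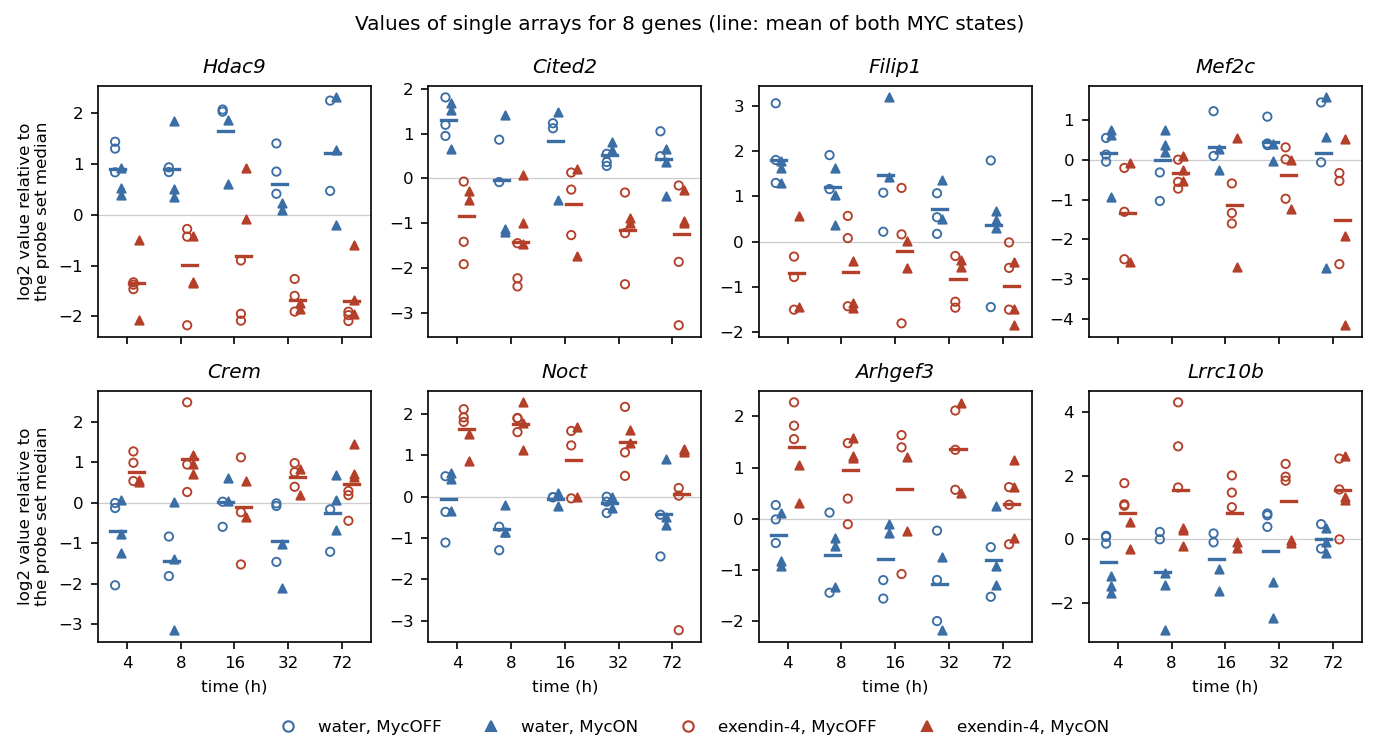
Points are single arrays (log2 value relative to the probe set's median over the 60 arrays) against time in hours for 8 genes, open circles MycOFF and triangles MycON, water in blue and exendin-4 in red; lines are means over both MYC states. For Hdac9, 25 of 27 exendin-4 arrays lie below every water array, whereas Crem arrays overlap at 16 h.

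Of the 24 leading genes, 13 had 25 further probe sets past the filter on low variation. All 25 had the sign of the main probe set, and 17 of them, in 10 genes, reached at least 50% of its difference. Some lay within 1 SE of 0, as for Hdac9 (-0.03 ± 0.07) and 1 Mef2c probe set (-0.05 ± 0.06). The main probe set was chosen for its widest range over these same arrays. Over all genes, 168 (1.28%) had 1 sign in all 10 combinations, 50 higher (0.38%) and 118 lower (0.896%); 78 of these were called, 20 higher and 58 lower. Exendin-4 and water arrays were apart in at least 7 of the 10 combinations in 23 genes (0.175%), of which 16 were called; these counts use the same arrays as the calls.

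Among 20 tested targets of cyclic AMP and CREB, 3 rose and 1 fell (4 of 20 called, against 1.48% of all genes), 14 had a difference above 0 and the median was 0.10. All gene lists were chosen with earlier results of these data known. The shares called in this list and those below are therefore descriptions and not tests of enrichment. Crem, a CREB relative whose short form ICER represses cyclic AMP-driven transcription, ran from -1.53 through 0.65 to 2.48 with exendin-4 and from -3.16 through -0.60 to 0.69 with water. Of its exendin-4 arrays 26 of 27 lay above the water median, and the difference was 1.30 ± 0.23 log2 units (limma adjusted p = 0.00081). Its other probe sets past the filter gave 0.50 and 0.08. Rgs2, which turns off G proteins, ran from -2.48 through 0.61 to 1.95 with exendin-4 and from -1.88 through -0.69 to 1.23 with water. It rose by 1.13 ± 0.24, with 0.88 and 0.75 on its other probe sets past the filter. Rgs2 missed the threshold after scaling to 1 median absolute deviation (limma adjusted p = 0.076) and without the 4 h arrays (0.13). The clock repressor gene Per1 rose by 0.47 ± 0.12, a call that 8 of the 52 single-array omissions removed. Cited2 was the member that fell. The insulin receptor substrate gene Irs2 differed by 0.59 ± 0.17 and did not pass (limma adjusted p = 0.069); it passed without the 4 wide arrays (adjusted p = 0.046) and after quantile normalization (0.042). The nuclear receptor gene Nr4a1 (0.06 ± 0.18), Sik1 (0.10 ± 0.08), Fos (-0.35, adjusted p = 0.66) and the prohormone convertase gene Pcsk1 (0.09 ± 0.23) did not pass. None of 19 tested genes of GLP-1 receptor signalling itself, from adenylate cyclases and phosphodiesterases to protein kinase A subunits, was called; their differences ran from -0.44 to 0.57, and the median was 0.07.

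In the class IIa HDAC, SIK and MEF2 group, 3 of 12 genes were called, against 1.48% of all genes: Hdac9 and Mef2c fell and Sik2 rose. This list holds Hdac9, the gene of smallest p, and was chosen with earlier results known, so the share is no test of the group. Mef2c, a transcription factor held in check by class IIa HDACs, ran from -4.17 through -0.55 to 0.55 with exendin-4 and from -2.73 through 0.37 to 1.58 with water. In all, 9 water arrays lay above every exendin-4 array, and the difference was -1.17 ± 0.29 log2 units (limma adjusted p = 0.026). Other Mef2c probe sets past the filter gave -0.76, -0.29 and -0.05. The Mef2c call was lost in 9 of 20 alternatives, among them without the 4 h arrays (limma adjusted p = 0.26). Without the 4 wide arrays Mef2c was -0.93 and missed the threshold (adjusted p = 0.090), as it did without MycON exendin-4 4 h replicate 1 (0.055) or MycOFF water 16 h replicate 2 (0.051). Sik2, a salt-inducible kinase, ran from -1.59 through 0.64 to 1.86 with exendin-4 and from -1.08 through -0.39 to 1.20 with water. It rose by 0.87 ± 0.21 (limma adjusted p = 0.021), and 10 exendin-4 arrays exceeded every water array. A second Sik2 probe set past the filter gave 0.44 ± 0.16. The Sik2 call was lost in 5 of 20 alternatives, among them without the 4 h (limma adjusted p = 0.064), 16 h (0.082) or 32 h arrays (0.18). At 72 h the Sik2 difference was 1.33 in MycOFF and -0.27 in MycON islets. Hdac5 (-0.79 ± 0.23, adjusted p = 0.061) did not pass, though it did under 5 of the 20 alternatives (lowest adjusted p = 0.0063), and Hdac4 (-0.06), Hdac7 (0.00), Mef2a (-0.48) and Mef2d (-0.17) did not either. The mean of the 12 genes was lower than in any array outside the 4 wide ones in 3 of those 4, MycON 72 h replicate 1 (-0.59), MycOFF 16 h replicate 3 (-0.58) and MycOFF 72 h replicate 2 (-0.73).

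Among 14 genes of beta cell identity 2 fell (14.3% called, against 1.48% of all genes), 3 of 14 had a difference above 0 and the median was -0.13. The median was -0.32 in MycOFF and 0.02 in MycON islets, and -0.07 with 1 gene called without the 4 wide arrays. Neurod1, a transcription factor of insulin gene expression, ran from -1.36 through -0.17 to 1.01 with exendin-4 and from -0.32 through 0.34 to 1.18 with water. It differed by -0.49 ± 0.12 log2 units (limma adjusted p = 0.018), with 25 of 27 exendin-4 arrays below the water median. Pax6 ran from -1.52 through -0.28 to 1.17 with exendin-4 and from -1.08 through 0.41 to 1.77 with water, a difference of -0.79 ± 0.19 (limma adjusted p = 0.021). A second Pax6 probe set past the filter, of narrower range, differed by only -0.09 ± 0.11. Slc2a2, the glucose transporter GLUT2 and the 1 called gene of 11 in glucose sensing and insulin release (9.09%, against 1.48% of all genes), ran from -1.84 through -0.09 to 1.02 with exendin-4 and from -0.61 through 0.43 to 1.67 with water. It fell by 0.69 ± 0.15 (limma adjusted p = 0.0084), 25 of 27 exendin-4 arrays lay below their own water mean, and all 10 combinations had a negative sign. Slc2a2 was also lower in MycON islets, by -0.59 ± 0.15 (adjusted p = 0.0050). Without the 4 wide arrays, of which MycOFF 16 h replicate 3 and MycOFF 72 h replicate 2 had the lowest means of the identity genes, Slc2a2 was -0.52 (adjusted p = 0.036), Neurod1 -0.40 (0.047) and Pax6 -0.56 (0.090, not called). Without the 4 h arrays none of the 3 passed (Slc2a2 0.14, Neurod1 0.42, Pax6 0.41).

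The islet hormone genes did not pass, and their arrays spread widely. Ins2 ran from -6.91 through 0.25 to 0.95 with exendin-4 and from -7.15 through 0.01 to 0.93 with water, a difference of 0.45 ± 0.64 log2 units. The amyloid polypeptide gene Iapp differed by 0.29 ± 0.27, Gcg, which encodes glucagon, by -0.15 ± 0.11 and the somatostatin gene Sst by 0.40 ± 0.42. Further Iapp probe sets past the filter gave 0.49 ± 0.20 and 0.02 ± 0.06. The beta cell regulator Pdx1 differed by 0.20 ± 0.15 and the cell cycle gene Ccnd2 by -0.20 ± 0.31. A second Pdx1 probe set past the filter had the opposite sign (-0.27 ± 0.19). None of 9 hormone genes, 21 secretory granule genes, 28 cell cycle genes and 22 genes of MYC-driven growth was called.

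Among 13 genes of the CHOP and ATF4 branch of the stress response, 2 rose (15.4% called, against 1.48% of all genes) and all 13 had a difference above 0, with a median of 0.27 against 0.00 over all genes; 13 of 13 stayed above 0 after quantile normalization and after scaling to 1 median absolute deviation. Vldlr, a lipoprotein receptor induced by this branch, ran from -0.89 through 0.99 to 3.54 with exendin-4 and from -1.23 through -0.29 to 2.59 with water. It rose by 1.33 ± 0.33 (limma adjusted p = 0.026), and its other probe sets past the filter differed by 0.92 to 1.26. The Vldlr call was lost in 6 of 20 alternatives, among them without the 4 h (adjusted p = 0.14), 8 h (0.13), 16 h (0.097) or 32 h arrays (0.145). At 72 h its difference was -1.16 in MycOFF and 1.02 in MycON islets. The transcription factor gene Cebpb rose by 0.54 ± 0.14 (adjusted p = 0.032). Its call was lost in 7 of the 52 single-array omissions (up to 0.065), with marker means as covariates (0.081) and without the 4 h arrays (0.31). Ddit3, which encodes CHOP, differed by 0.27 ± 0.17 and did not pass. The median of the 13 genes was 0.45 in MycOFF and 0.06 in MycON islets.

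Among 10 heat shock genes 2 fell, against 1.48% called of all genes; 2 of 10 had a difference above 0 and the median was -0.38. Dnajb1, an HSP40 co-chaperone, ran from -1.56 through -0.37 to 0.53 with exendin-4 and from -0.57 through 0.14 to 1.54 with water. It fell by 0.64 ± 0.13 (limma adjusted p = 0.0054), and 11 exendin-4 arrays lay below every water array, but its second probe set gave -0.17. Hsph1, an HSP110 family chaperone, fell by 0.72 ± 0.17 (adjusted p = 0.018), with -0.56 on its second probe set. Neither passed without the 4 h arrays (Dnajb1 0.16, Hsph1 0.31). The inducible Hspa1a (-0.69) and Hspa1b (-0.88) did not pass (adjusted p = 0.48 and 0.32). Of 20 endoplasmic reticulum chaperones and Xbp1 targets none was called, and Xbp1 differed by 0.06 ± 0.14. Other Xbp1 probe sets past the filter had the opposite sign (-0.33 ± 0.14, -0.34 ± 0.36 and -0.12 ± 0.07), so no direction can be given. In the circadian clock group 1 of 14 genes was called (7.14%, against 1.48% of all genes), the repressor gene Cry2, which ran from -1.24 through 0.30 to 2.02 with exendin-4 and from -2.42 through -0.36 to 0.88 with water. Cry2 rose by 0.90 ± 0.22, with a positive sign in all 10 combinations. The Cry2 call was lost without the 4 h (limma adjusted p = 0.18), 8 h (0.064) or 32 h arrays (0.077). Per1 and Noct, both called and described above, were not part of this group, so its count depends on how the list was drawn.

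**Figure D3:**
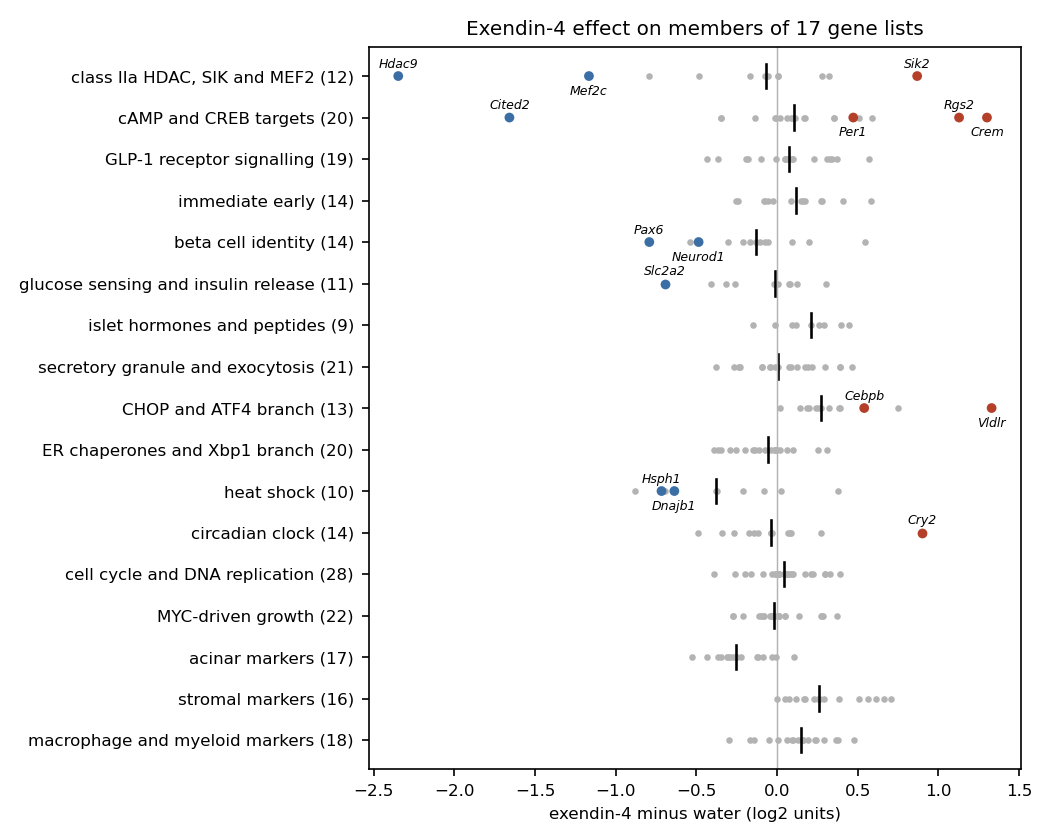
Each point is 1 gene of 1 of 17 lists (tested genes in parentheses) at its exendin-4 minus water difference in log2 units; black bars are list medians and coloured, named points passed the threshold. The points of the CHOP and ATF4 branch all lie above 0, with a median of 0.27, and no marker of acinar, stromal or myeloid cells passed.

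In all, 33 gene lists covered 567 genes, of which 465 were tested and 15 were called, against 1.48% of all genes; 26 lists had no called gene. Of 17 acinar markers none was called and 1 had a difference above 0 (median -0.25, -0.69 after scaling to 1 median absolute deviation, and -0.37 with 0 of 17 above 0 without the 4 wide arrays); their mean ran from -1.12 through 0.06 to 2.90 in exendin-4 arrays and from -1.21 through 0.27 to 3.03 in water arrays. Of 16 stromal markers none was called and 15 had a difference above 0 (median 0.26, and 10 of 16 with a median of 0.08 after scaling to 1 median absolute deviation); their mean ran from -0.66 through -0.07 to 2.89 and from -1.001 through -0.15 to 1.70. Of 18 macrophage and myeloid markers none was called and 14 had a difference above 0, or 8 after that scaling. The levels being centred, it cannot be said which of these markers were absent. With the acinar, stromal and myeloid means added to the model, an alternative chosen after seeing the data, 204 genes passed, 43 higher and 161 lower, and of the 35 named called genes Cebpb and Lmo1 lost their call.

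The exendin-4 effect was next compared between MYC states. The difference between MycON and MycOFF effects passed for 0 of 13166 genes with limma, against 262 at an unadjusted p under 0.05. Taken alone within the joint model, the MycOFF effect passed for 43 genes (0.327%), 9 higher (0.0684%) and 34 lower (0.258%), and the MycON effect for 10 (0.076%), 3 higher (0.0228%) and 7 lower (0.0532%), counts that do not test the difference. Hdac9 was -2.77 ± 0.26 in MycOFF and -1.90 ± 0.27 in MycON islets, a difference of 0.87 ± 0.38 (limma unadjusted p = 0.026, adjusted p = 1.00). Its MycOFF arrays ran from -2.17 to -0.28 with exendin-4 and from 0.41 to 2.25 with water and did not overlap, whereas its MycON arrays ran from -2.08 to 0.92 and from -0.20 to 2.31. Lrrc10b was 1.62 ± 0.24 and 1.67 ± 0.25 (difference 0.05 ± 0.35), and Slc2a2 was -0.68 ± 0.21 and -0.70 ± 0.22 (difference -0.02 ± 0.31). In MycON islets at 72 h alone, Hdac9 was 2.54 log2 units below water (-2.54), Lrrc10b was at 1.77 and Slc2a2 at -1.28.

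The smallest p of this difference belonged to Ddit3. In MycOFF islets it ran from -0.23 through 0.68 to 2.34 with exendin-4 and from -1.08 through -0.03 to 0.48 with water; in MycON islets it ran from -1.34 through -0.35 to 0.57 and from -0.94 through -0.07 to 0.91. The effects were 0.85 ± 0.20 and -0.34 ± 0.21, a difference of -1.20 ± 0.29 (limma unadjusted p = 0.00019, adjusted p = 1.00). It did not pass, nor did the next genes, Coa7 (0.92 ± 0.26), the endothelial gene Vwf (1.36 ± 0.40), the amino acid transporter gene Slc1a4 (-1.04 ± 0.31) and the Ras-like gene Rasd1 (0.57 ± 0.18). Rasd1, a cyclic AMP target list member, had a pooled difference of -0.35 ± 0.10 (adjusted p = 0.054) and passed under 4 of 19 alternatives (lowest adjusted p = 0.015).

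**Figure D4:**
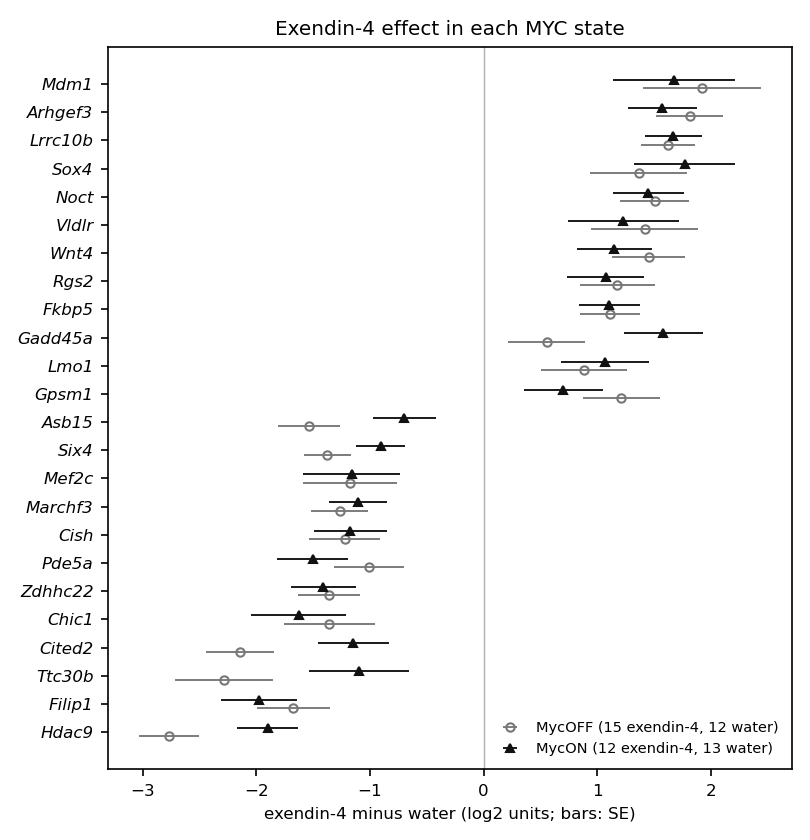
For the 24 leading genes, the exendin-4 minus water difference in log2 units is drawn in MycOFF (open circles, 15 against 12 arrays) and MycON islets (triangles, 12 against 13 arrays), with bars of 1 SE. Both states lie on the same side of 0 for all 24 genes; the gap is 0.87 for Hdac9 and 0.05 for Lrrc10b.

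Differences of the effect between times passed for 0 of 13166 genes with limma's F test, against 664 at an unadjusted p under 0.05. At single times, with both MYC states pooled, 12 genes passed at 4 h (0.0911%), all lower, 10 at 8 h (0.076%), 7 higher (0.0532%) and 3 lower (0.0228%), none at 16 h (871 at an unadjusted p under 0.05), 1 at 32 h (0.0076%) and 2 at 72 h (0.0152%). These counts rest on single arrays: over the 52 omissions they ran from 0 (without MycOFF exendin-4 4 h replicate 2) to 57 (without MycOFF exendin-4 4 h replicate 3) at 4 h, from 5 (without MycON exendin-4 8 h replicate 2) to 16 (without MycOFF exendin-4 8 h replicate 3) at 8 h, from 0 to 3 (without MycON water 16 h replicate 2) at 16 h, from 0 (without MycON exendin-4 32 h replicate 1) to 2 (without MycON exendin-4 16 h replicate 1) at 32 h and from 1 (without MycON exendin-4 72 h replicate 3) to 18 (without MycOFF exendin-4 72 h replicate 3) at 72 h. Hdac9 passed at 4 h (-2.28) and 72 h (-2.90), and was -1.90, -2.39 and -2.27 at 8, 16 and 32 h. Six4 passed at 4 h (-1.45) and 8 h (-1.81), and Filip1 at 4 h (-2.53). The genes that rose at 8 h included Mdm1 (3.68), Noct (2.55), Crem (2.51), Lrrc10b (2.33) and Errfi1 (2.28). Arhgef3 passed at 32 h (2.62).

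Crem at 8 h was between 0.26 and 2.48 in all 6 exendin-4 arrays and between -3.16 and 0.01 in the 5 water arrays, without overlap, whereas at 16 h its difference was -0.07 and the arrays overlapped. Errfi1 was positive from 4 to 32 h and -0.55 at 72 h (limma F test, unadjusted p = 0.00044, adjusted p = 0.96). Foxn2, a forkhead gene with the smallest p over times (adjusted p = 0.57), was -1.25 at 4 h, 0.44 at 8 h, -0.70 at 16 h, 0.05 at 32 h and -0.92 at 72 h. Rgcc, a cell cycle regulator gene, was 1.26 at 8 h and -0.68 at 72 h (adjusted p = 0.82). Myo1f, a class I myosin of leukocytes, reached 2.60 at 72 h but ran from -0.19 to 0.13 over the earlier times; its 72 h value was 3.92 in MycON and 0.95 in MycOFF islets. The median difference of the 18 myeloid markers over all times was 0.51 in MycON and -0.14 in MycOFF islets, and their part in the Myo1f value was not tested.

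**Figure D5:**
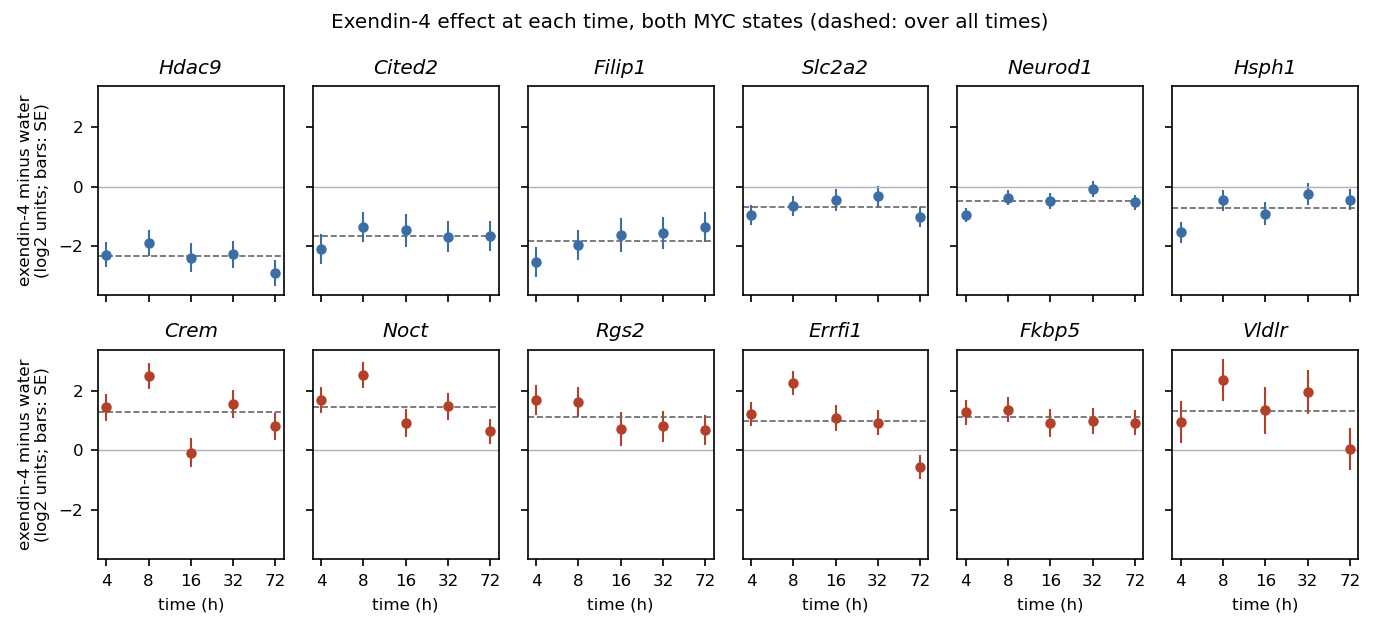
Points are the exendin-4 minus water difference in log2 units at each time in hours, both MYC states pooled, with bars of 1 SE; dashed lines are the differences over all times. Hdac9 stays between -2.90 and -1.90, while Crem runs from 2.51 at 8 h to -0.07 at 16 h and Errfi1 from 2.28 at 8 h to -0.55 at 72 h.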

How the data were processed

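Islet RNA of 60 mouse samples was measured on Affymetrix arrays. The deposited values are, from their range, log2 values of 45101 probe sets, each centred on its median over the 60 arrays; MAS5 and GCRMA are listed in the submitters' processing notes, without version or order. The role of each is not given in the sources used here. Precision is limited by the number of arrays.

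The deposited log2 values were used without further normalization. Platform annotation gave 34945 probe sets 1 symbol, 932 several and 9160 none, with 64 controls left out; 34741 symbols matched RefSeq. Probe sets with an interquartile range under the 40th percentile of the kept arrays (0.101) were left out, and the probe set of widest range stood for each of 13166 genes. An additive model (limma 3.58.1, R 4.3.3; 41 residual degrees of freedom) held exendin-4 and MYC state by time, with Benjamini-Hochberg adjustment over all genes and a threshold of 0.05; interaction models gave effects by MYC state and time. The scripts were tested on simulated data.

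The 8 dropped arrays were left out. Same-numbered arrays of a combination deviated with correlations from -0.58 to 0.41 (median 0.00, 22 pairs, 7 over 0.1). Differently numbered arrays gave -0.42 to 0.58 (median -0.01, 46 pairs, 16 over 0.1). Deviations from the mean of so few arrays are tied to each other, so these values cannot decide whether the numbers pair samples. Named genes were the 12 largest rises and falls called with 1 sign at all 5 times, up to 3 called members of each list, 22 set genes (18 tested, 4 called) and the 5 smallest p of each interaction. Shown promoters are those of the 4 smallest p. The comparison, gene lists and named genes were chosen with earlier results of these data known. Alternatives covered arrays, filter, scaling, probe set choice, covariates, single arrays and times.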

Additional observations from a re-analysis of the deposited data

Results flagged for a closer look

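For 3 genes the exendin-4 arrays of 1 time all lay on 1 side of the mean of the water arrays of the same MYC state, and those of another time all lay on the other side. For Pcsk1, the prohormone convertase gene, the average distance was -0.722 log2 units at 16 h and 0.558 at 8 h. For Nr4a1 it was -0.316 at 32 h and 0.471 at 4 h. For Uggt2, a glycoprotein glucosyltransferase family gene of the endoplasmic reticulum, it was -0.904 at 16 h and 0.970 at 32 h. The difference between those particular times was not tested. Over all 5 times, limma's F test did not pass for Pcsk1 (adjusted p = 0.96), Nr4a1 (0.98) or Uggt2 (0.82). The share of all genes with such a pattern is not given here, so these 3 genes are a description and no sign of an excess.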

How the results depend on the processing

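Of the 35 named called genes, 31 kept their call in all 52 single-array omissions, and the exceptions were Mef2c, Cebpb, Per1 and Lmo1. None of the 35 reversed in any of 20 alternatives, but only 3 kept their call in all 20. The call was lost by 28 of the 35 in MycOFF arrays only, by 28 in MycON arrays only and by 22 with all 60 arrays. The pooled count of 195 ran from 145 to 243 over single-array omissions. It was 23 with all 60 arrays (14 higher, 9 lower), 497 with array weights, 13 in MycOFF arrays only, 10 in MycON arrays only (5 higher, 5 lower), and 39, 307, 88, 116 and 125 without 4, 8, 16, 32 and 72 h. It was 158 with no filter, 258 after quantile normalization, 150 after scaling to 1 median absolute deviation, 226 with mean probe sets and 220 (47 higher, 173 lower) with the replicate number as a block, which changed no call of the 35 named genes. The interaction and time tests gave 0 genes in every single-array omission. By time, all 60 arrays gave 0 genes at 4 h, 0 at 8 h and 1 at 72 h. Quantile normalization gave 30 at 4 h, 1 at 16 h, 3 at 32 h and 1 at 72 h, no filter gave 4 at 72 h, and array weights gave 136, 24, 4, 5 and 15 at the 5 times. Single-array omissions gave 0 to 57 at 4 h, 5 to 16 at 8 h, 0 to 3 at 16 h, 0 to 2 at 32 h and 1 to 18 at 72 h, and moved these counts by over 1.5 times in 10, 7, 6, 11 and 9 of the 52. Both alternatives chosen after seeing the data kept the pooled count within 1.5-fold: 163 without the 4 wide arrays and 204 with marker covariates. The cause of these changes was not tested. Fewer arrays entered the fits by MYC state and without a time, and centred values without signal over background limit what can be said of low genes.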
